A study of Mus musculus with 12 samples.

Results

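The genes described are 10 members of the transforming growth factor beta (TGF-beta) superfamily pathway: the TGF-beta ligands Tgfb1, Tgfb2 and Tgfb3, the activin and inhibin beta subunits Inhba and Inhbb, the bone morphogenetic proteins (BMPs) Bmp2 and Bmp4, the receptors Tgfbr1 and Tgfbr2, and the feedback inhibitor Smad7. They were taken as every probe set annotated to these symbols, which gave 21 of the 45037 probe sets on the array that are not controls. Of these, 14 exceeded their array's median on 3 or more arrays of the 12 and were tested, and each of the 10 genes had at least 1 tested probe set. The samples were mammary glands of ovariectomized BALB/c female mice, 10 weeks of age, which were all given 17β-estradiol alone (100 ng, 24 h) followed by 17β-estradiol and progesterone together (2.5 ug of progesterone). The 4 groups were progesterone receptor null glands after 24 h of both hormones, wild type glands after 24 h, null glands after 8 h and wild type glands after 8 h. Each group had 3 arrays, and each array held RNA pooled from 3 mice, so no value belongs to a single animal. No group without progesterone was analysed here, and the labels do not describe the null allele. Because whole glands were used, fewer cells of a type and less RNA per cell cannot be told apart in any value below.

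As background, TGF-beta and activin ligands are secreted dimers that bring together type II and type I serine/threonine kinase receptors, and the activated type I receptor phosphorylates Smad2 and Smad3. BMPs use related receptors and signal through Smad1, Smad5 and Smad9, and both branches share Smad4. In the mammary gland TGF-beta is best known as a restraint on ductal growth and epithelial proliferation. Progesterone acts through its receptor in a subset of luminal epithelial cells, which pass the signal on to neighbouring cells through secreted factors.

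The 12 arrays had medians between 5.84 and 5.91 log2 units, and arrays of the same group correlated at 0.965 to 0.993 over probe sets. The progesterone receptor gene itself, Pgr, did not read the same way in all its probe sets. Probe set 1439527_at gave 7.86, 7.33 and 7.20 in null glands at 24 h, against 7.84, 7.52 and 8.10 in wild type glands at 24 h. At 8 h it gave 9.07, 8.56 and 9.04 in null glands, against 10.01, 9.89 and 9.94 in wild type glands, a 2.08-fold lower level in null glands (limma adjusted p = 0.0124). Probe set 1455772_at ran the other way: null glands exceeded wild type glands 4.28-fold at 24 h (adjusted p = 9e-05) and 3.92-fold at 8 h (adjusted p = 6e-05). Pgr signal was therefore present on all null arrays, and the sources used here do not say whether these probe sets lie inside the altered part of the gene.

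The promoters of Tgfb2 and Tgfb1 are shown first, because Tgfb2 was lower at 24 h than at 8 h in both genotypes while no comparison of Tgfb1 passed the test. Each run is the 250 bases before the annotated start, from the RefSeq table of GRCm38.p6, read 5′ to 3′ on the gene's strand. Capitals mark matches on either strand to a TATA box (TATAAA), a GC box (GGGCGG) or an E-box (CACGTG). The Tgfb2 window is chr1:186705990-186706239 on the minus strand, and the Tgfb1 window is chr7:25686752-25687001 on the plus strand.
Tgfb2: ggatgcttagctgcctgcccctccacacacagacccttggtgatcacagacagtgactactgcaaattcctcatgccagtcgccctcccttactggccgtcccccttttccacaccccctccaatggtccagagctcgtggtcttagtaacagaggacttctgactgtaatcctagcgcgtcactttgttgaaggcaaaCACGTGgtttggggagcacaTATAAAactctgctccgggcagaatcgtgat
Tgfb1: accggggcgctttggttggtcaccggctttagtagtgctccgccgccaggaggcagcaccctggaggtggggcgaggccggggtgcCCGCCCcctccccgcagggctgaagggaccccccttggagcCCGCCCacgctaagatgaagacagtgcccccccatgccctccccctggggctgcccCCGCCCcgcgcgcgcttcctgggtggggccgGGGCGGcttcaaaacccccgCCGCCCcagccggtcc
The Tgfb2 window had 53.6% G and C, 1 TATA box, 1 E-box and no GC box. The Tgfb1 window had 75.2% G and C, 5 GC boxes and neither of the other motifs. Over 32851 windows of this length, 12.4% held TATAAA, 32.7% held GGGCGG and 6.02% held CACGTG on either strand. The full progesterone response element, searched as the half-sites AGAACA and TGTTCT with any 3 bases between them, was found in 3 of these windows, and the half-site TGTTCT, which lies within it, in 16.1%. Neither was found in the windows used for 7 of the members. No window was used for Tgfb3, Bmp2 or Smad7, so this says nothing of those genes. These matches are descriptions of letters in a short window, and say nothing of whether a factor binds there.

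Among the TGF-beta ligands, Tgfb3 had the clearest pattern: it was low in null glands at 24 h and near 8.7 log2 units in every other group. Tgfb3, a ligand known for its rise in the involuting gland, gave 7.75, 7.83 and 7.56 log2 units in null glands at 24 h, against 8.73, 8.70 and 8.67 in wild type glands at 24 h. The 3 null pools lay below every other array of the study, with no overlap between the groups. At 8 h Tgfb3 gave 8.72, 8.68 and 8.69 log2 units in null glands, against 8.82, 8.70 and 8.87 in wild type glands, and these ranges overlapped.

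The null minus wild type difference of Tgfb3 at 24 h was -0.99 on the log2 scale (SE 0.08, 95% interval -1.17 to -0.81), a 1.99-fold lower level in null glands (limma adjusted p = 0.00016). At 8 h the difference was -0.09 (95% interval -0.27 to 0.08, adjusted p = 0.65). The test of the change between these differences gave -0.90 (SE 0.11, 95% interval -1.15 to -0.65, adjusted p = 0.0135), so the genotype difference was larger at 24 h than at 8 h. That call was lost when wild type pool 1 of 8 h was left out (adjusted p = 0.0502), with the difference itself at -0.91. Over time, Tgfb3 was lower at 24 h than at 8 h in null glands (difference -0.99, 1.98-fold, adjusted p = 0.00018), and the difference in wild type glands was -0.09 (95% interval -0.27 to 0.09, adjusted p = 0.56). Of all probe sets tested, 0.143% passed the test of change between times (0.114% with the difference more negative at 24 h), against 1.11% for genotype at 24 h and 4.4% for time in null glands. Among the 126 genes lower in null glands at 24 h, Tgfb3 ranked 3rd by p-value and 54th by size.

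Tgfb2, which is made in mammary epithelium and stroma, showed a graded pattern instead of a single low group. Probe set 1423250_a_at gave 6.43, 5.68 and 5.99 log2 units in null glands at 24 h, against 6.93, 6.47 and 6.88 in wild type glands at 24 h. It gave 6.94, 7.08 and 6.98 in null glands at 8 h, against 7.64, 7.54 and 7.61 in wild type glands at 8 h. Null pools lay below wild type pools at each time, and 24 h pools lay below 8 h pools in each genotype, with no overlap in any of the 4 comparisons. The neighbours in the middle of this order, wild type glands at 24 h and null glands at 8 h, met at 6.93 and 6.94.

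Tgfb2 was lower at 24 h than at 8 h by 0.96 log2 units in null glands (difference -0.96, SE 0.17, 1.95-fold, adjusted p = 0.0122) and by 0.84 in wild type glands (difference -0.84, SE 0.17, 1.79-fold, adjusted p = 0.0193). With the pool number as a block in the null arrays alone, the time difference in null glands kept its size and had an adjusted p of 0.0540, and without null pool 3 of 8 h it had an adjusted p of 0.0557. In wild type glands the call was lost without any 1 of 4 pools: pool 1 (adjusted p = 0.0852), pool 2 (0.0545) or pool 3 (0.0514) of 8 h, or pool 2 of 24 h (0.0594). The test of change between the genotypes gave -0.13 (95% interval -0.65 to 0.40) and made no call; that interval leaves room for a sizeable difference either way.

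The genotype difference of Tgfb2 was -0.72 at 24 h (SE 0.17, adjusted p = 0.078) and -0.60 at 8 h (SE 0.17, adjusted p = 0.097), so neither time passed the test on its own. Several settings moved these values past the threshold: at 24 h, the pool number as a block gave an adjusted p of 0.0440, the fit without null pool 1 gave 0.0160 and the fit without wild type pool 2 gave 0.0272. At 8 h, the fit without null pool 1 of 24 h gave 0.0337 and the fit on the 8 h arrays alone gave 0.0080. Array weights gave 0.0105 at 24 h and 0.0137 at 8 h, where 2.89% and 16.9% of all probe sets were called. Averaged over both times, a comparison chosen after the data were seen, Tgfb2 was 1.58-fold lower in null glands (difference -0.66, SE 0.12, adjusted p = 0.0086), where 6.63% of all probe sets tested were called. That average was called in each of the 12 fits that left out 1 array, with adjusted p between 0.0016 and 0.0278.

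The other Tgfb2 probe sets followed the same order of groups at lower levels. Probe set 1450922_a_at gave 5.38, 4.92 and 4.97 log2 units in null glands at 24 h, against 6.54, 5.51 and 6.54 in wild type glands at 24 h. At 8 h it gave 6.41, 6.42 and 6.72 in null glands, against 7.22, 7.14 and 7.22 in wild type glands. Wild type pool 2 of 24 h lay about 1 log2 unit below the other wild type pools of that time. That pool and all 3 null pools of 24 h lay below the array medians of 5.84 to 5.91. The probe set thus passed the filter through its other arrays, and its 24 h differences are set against weak signal. This probe set was lower at 24 h than at 8 h in null glands (difference -1.43, adjusted p = 0.0102) and in wild type glands (difference -1.0, adjusted p = 0.0375), the second of which was lost without any of the 3 wild type pools of 8 h (adjusted p 0.0864 to 0.128), without null pool 2 of 8 h (0.0545) or without null pool 2 of 24 h (0.0508). The first was lost without null pool 3 of 8 h (0.0557). Its genotype difference at 24 h was -1.11 with an adjusted p of 0.0566, which became 0.0298 with the pool number as a block and 0.00095 without wild type pool 2. At 8 h its genotype difference was -0.68 (adjusted p = 0.189), which became 0.0201 without wild type pool 2 of 24 h. With array weights the adjusted p of 1450922_a_at was 0.0072 at 24 h and 0.0201 at 8 h. Averaged over both times, its genotype difference was -0.89 (limma adjusted p = 0.0108).

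Probe set 1450923_at lay between 4.91 and 5.67 log2 units in null glands at 24 h, against 5.51 to 6.30 in wild type glands at 24 h, and between 5.98 and 6.28 in null glands at 8 h, against 6.60 to 6.93 in wild type glands at 8 h. Its 3 null pools of 24 h and wild type pool 2 of 24 h lay below the array medians of 5.84 to 5.91. This probe set too passed the filter through its other arrays, and its 24 h differences are set against weak signal. It was lower at 24 h in null glands (difference -0.91, adjusted p = 0.0450), a call that 9 of the 12 fits leaving out 1 array did not make, with adjusted p up to 0.157, and that the block in the null arrays did not make (0.0697). In wild type glands the time difference of 1450923_at was -0.79 (adjusted p = 0.0671), which passed without null pool 1 of 24 h (0.0372) and with the pool number as a block (0.0422). Its genotype difference was -0.75 at 24 h (adjusted p = 0.163, or 0.0380 without wild type pool 2) and -0.62 at 8 h (adjusted p = 0.198). With array weights the adjusted p was 0.0339 at 24 h and 0.0276 at 8 h. Averaged over both times, the genotype difference of 1450923_at was -0.69 (limma adjusted p = 0.0269). Several fits leaving out 1 array lost that call, with adjusted p up to 0.0722. The fourth probe set, 1438303_at, was not tested and lay between 3.99 and 5.53 log2 units over the 12 arrays, lowest in null glands at 24 h (4.75, 4.36 and 3.99) and highest in wild type glands at 8 h (5.53, 5.30 and 5.31). The 4 probe sets correlated with each other at 0.904 to 0.974 over the 12 arrays. They read the same RNA, so they are not separate evidence.

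**Figure D1:**
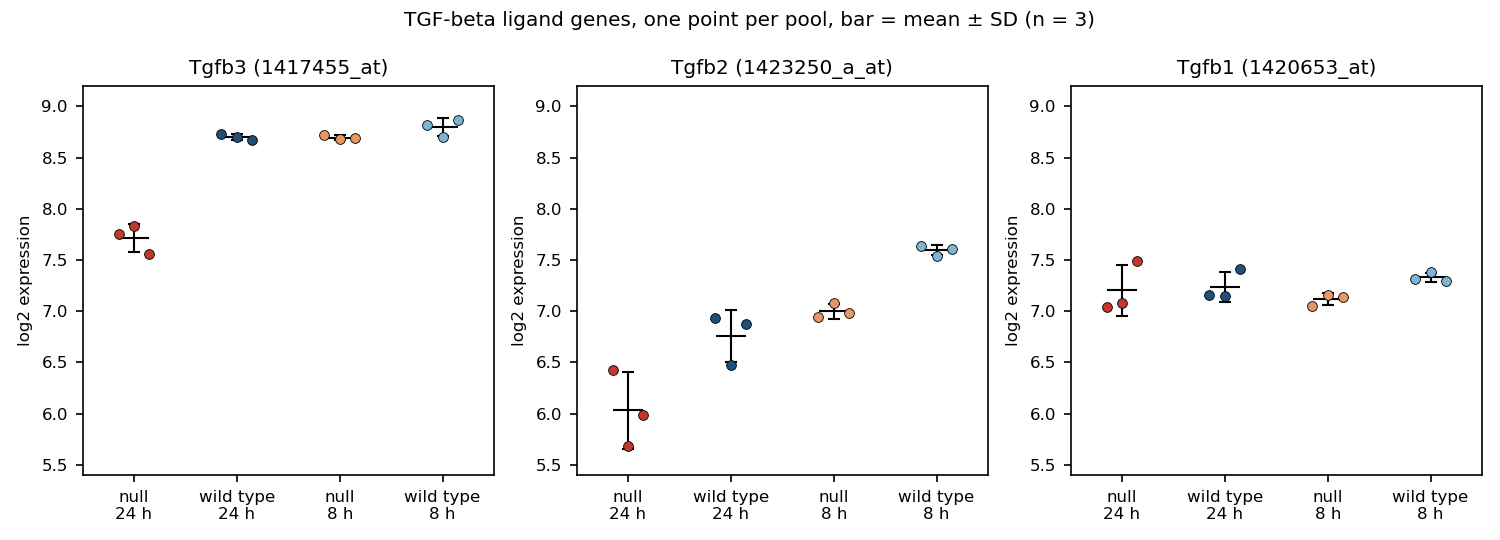
Log2 expression of Tgfb3, Tgfb2 and Tgfb1 (vertical axis, 1 probe set each) in null and wild type glands at 24 h and at 8 h. Points are pools, and bars are the mean ± SD of 3 pools; Tgfb3 is low in null glands at 24 h, at 7.56 to 7.83, and Tgfb2 lies at 5.68 to 6.43 in null glands at 24 h and is highest, at 7.54 to 7.64, in wild type glands at 8 h.

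Tgfb1, the ligand found most widely across cell types, was not called in any comparison. Its tested probe set gave 7.04, 7.08 and 7.49 log2 units in null glands at 24 h, against 7.16, 7.15 and 7.41 in wild type glands at 24 h. The 8 h values of Tgfb1 were 7.05, 7.16 and 7.14 in null glands, against 7.31, 7.38 and 7.30 in wild type glands. The 8 h groups did not overlap, yet the difference of -0.21 (95% interval -0.47 to 0.05) had an adjusted p of 0.44, and 24.4% of all probe sets tested did not overlap in that comparison. At 24 h the difference was -0.04 (95% interval -0.30 to 0.22). A further Tgfb1 probe set, 1445360_at, was not tested and lay between 5.17 and 5.76.

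Inhba encodes the beta A subunit, which forms activin A as a homodimer. It gave 6.66, 6.61 and 6.33 log2 units in null glands at 24 h, against 6.15, 6.51 and 6.18 in wild type glands at 24 h. It gave 6.22, 6.17 and 6.12 in null glands at 8 h, against 5.79, 5.92 and 5.83 in wild type glands at 8 h. Inhba thus ran opposite to Tgfb2, with its lowest values in wild type glands at 8 h and its highest mean in null glands at 24 h, though the Inhba differences did not pass the test within a single time or genotype.

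The 24 h minus 8 h difference of Inhba was 0.36 in null glands (SE 0.12, adjusted p = 0.115) and 0.43 in wild type glands (SE 0.12, adjusted p = 0.064), and neither pair of groups overlapped. The wild type value passed the threshold with the pool number as a block (adjusted p = 0.0467) and without null pool 3 of 24 h (0.0483). With array weights the null value passed (0.0068), where 24.4% of all probe sets were called. Averaged over both genotypes, again a comparison chosen after the data were seen, Inhba was 1.32-fold higher at 24 h (difference 0.40, SE 0.09, adjusted p = 0.0108), beside 16% of all probe sets tested that were called in this average. The null minus wild type difference was 0.25 at 24 h (adjusted p = 0.40) and 0.32 at 8 h (adjusted p = 0.22), where the 8 h groups did not overlap. With array weights the 8 h value passed (0.0392), beside 16.9% of all probe sets. The genotype average was 0.29 (limma adjusted p = 0.0736). It passed with array weights (0.0118), with the pool number as a block (0.0485), without wild type pool 2 of 24 h (0.0210) and without null pool 3 of 24 h (0.0394). The untested Inhba probe set 1458291_at lay between 3.81 and 4.46 log2 units.

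Inhbb, the beta B subunit of activin B and inhibin B, was not called in any comparison. Its probe set 1426858_at gave 9.87, 10.20 and 9.95 log2 units in null glands at 24 h, against 9.97, 10.39 and 10.57 in wild type glands at 24 h. The 8 h pools gave 10.01, 10.24 and 10.09 in null glands, against 9.82, 10.04 and 10.21 in wild type glands. The groups overlapped at both times, and the largest Inhbb difference, at 24 h, was -0.30 (95% interval -0.63 to 0.03, adjusted p = 0.42). The other Inhbb probe set, 1426859_at, lay between 6.86 and 7.40 and correlated with the first at 0.44 over the 12 arrays.

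Of the BMP ligands, neither gene was called. Bmp2, a ligand first known from bone induction, gave 7.07, 7.42 and 7.23 log2 units in null glands at 24 h, against 7.08, 7.24 and 7.71 in wild type glands at 24 h. In the 8 h pools Bmp2 was 7.02, 7.19 and 7.21 in null glands, against 7.39, 7.53 and 7.40 in wild type glands. The 8 h groups did not overlap, with a difference of -0.30 (95% interval -0.62 to 0.03, adjusted p = 0.37).

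Bmp4, which takes part in mammary bud formation in the embryo, gave 7.26, 7.40 and 7.01 log2 units in null glands at 24 h, against 6.60, 7.04 and 7.02 in wild type glands at 24 h. The 8 h values were 6.99, 7.25 and 7.28 in null glands, against 7.05, 7.16 and 7.68 in wild type glands. Wild type pools at 24 h lay just below those at 8 h without overlap (difference -0.41, adjusted p = 0.22). The null minus wild type difference was 0.34 at 24 h (adjusted p = 0.44) and -0.12 at 8 h (adjusted p = 0.82).

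Neither receptor was called between the genotypes in the fit without array weights; with them, Tgfbr1 was called at 8 h (0.27, adjusted p = 0.0238) and in the average over times (0.18, adjusted p = 0.0486), beside 16.9% and 19.1% of all probe sets. Tgfbr1, the type I receptor kinase, gave 9.82, 10.01 and 10.04 log2 units in null glands at 24 h, against 9.83, 9.84 and 10.02 in wild type glands at 24 h. The 8 h pools had 9.86, 10.16 and 10.03 in null glands, against 9.85, 9.73 and 9.87 in wild type glands. These ranges overlapped at both times, and the larger difference, at 8 h, was 0.20 (95% interval -0.01 to 0.41, adjusted p = 0.34). The untested Tgfbr1 probe sets 1420893_a_at and 1420894_at lay between 3.03 and 3.78.

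Tgfbr2, the type II receptor that binds the ligand, gave 11.77, 11.94 and 11.84 log2 units in null glands at 24 h, against 11.61, 11.76 and 11.95 in wild type glands at 24 h. Its 8 h values were 12, 12.23 and 12.30 in null glands, against 12.12, 12.01 and 12.25 in wild type glands. Every 24 h pool lay below every 8 h pool, while the genotypes overlapped at both times. The 24 h minus 8 h difference was -0.32 in null glands (SE 0.10, adjusted p = 0.102) and -0.36 in wild type glands (SE 0.10, adjusted p = 0.073). With the pool number as a block these became 0.0422 in null glands and 0.0297 in wild type glands, and with the block in the null arrays alone the null value was 0.0673. With array weights the null value was 0.0131, where 24.4% of all probe sets were called. Averaged over both genotypes, the comparison chosen after the data were seen, Tgfbr2 was 1.27-fold lower at 24 h (difference -0.34, SE 0.07, adjusted p = 0.0109). Probe set 1425444_a_at of the same gene did not follow this, with a 24 h minus 8 h average of -0.04 (95% interval -0.22 to 0.15), and the untested 1422019_at lay between 2.64 and 3.10.

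Smad7, which blocks type I receptors and is itself induced by TGF-beta, varied widely among the null pools at 24 h (SD 0.575, n = 3). It gave 6.98, 7.55 and 8.13 log2 units in null glands at 24 h, against 7.68, 7.47 and 7.64 in wild type glands at 24 h. The null pools spanned over 1 log2 unit and lay on both sides of the wild type pools. At 8 h it gave 7.42, 7.95 and 7.84 in null glands, against 7.37, 7.60 and 7.44 in wild type glands. No comparison of Smad7 was called, and the 95% interval of the 24 h genotype difference, -0.55 to 0.47, leaves room for changes of either sign. Its untested probe set 1443771_x_at gave 5.36, 5.74 and 6.20 in the same order of null pools at 24 h. The mean of 6 lymphocyte marker genes tested ran in that order of pools too, at 7.07, 8.84 and 9.77 log2 units, and its part in the Smad7 values was not tested.

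**Figure D2:**
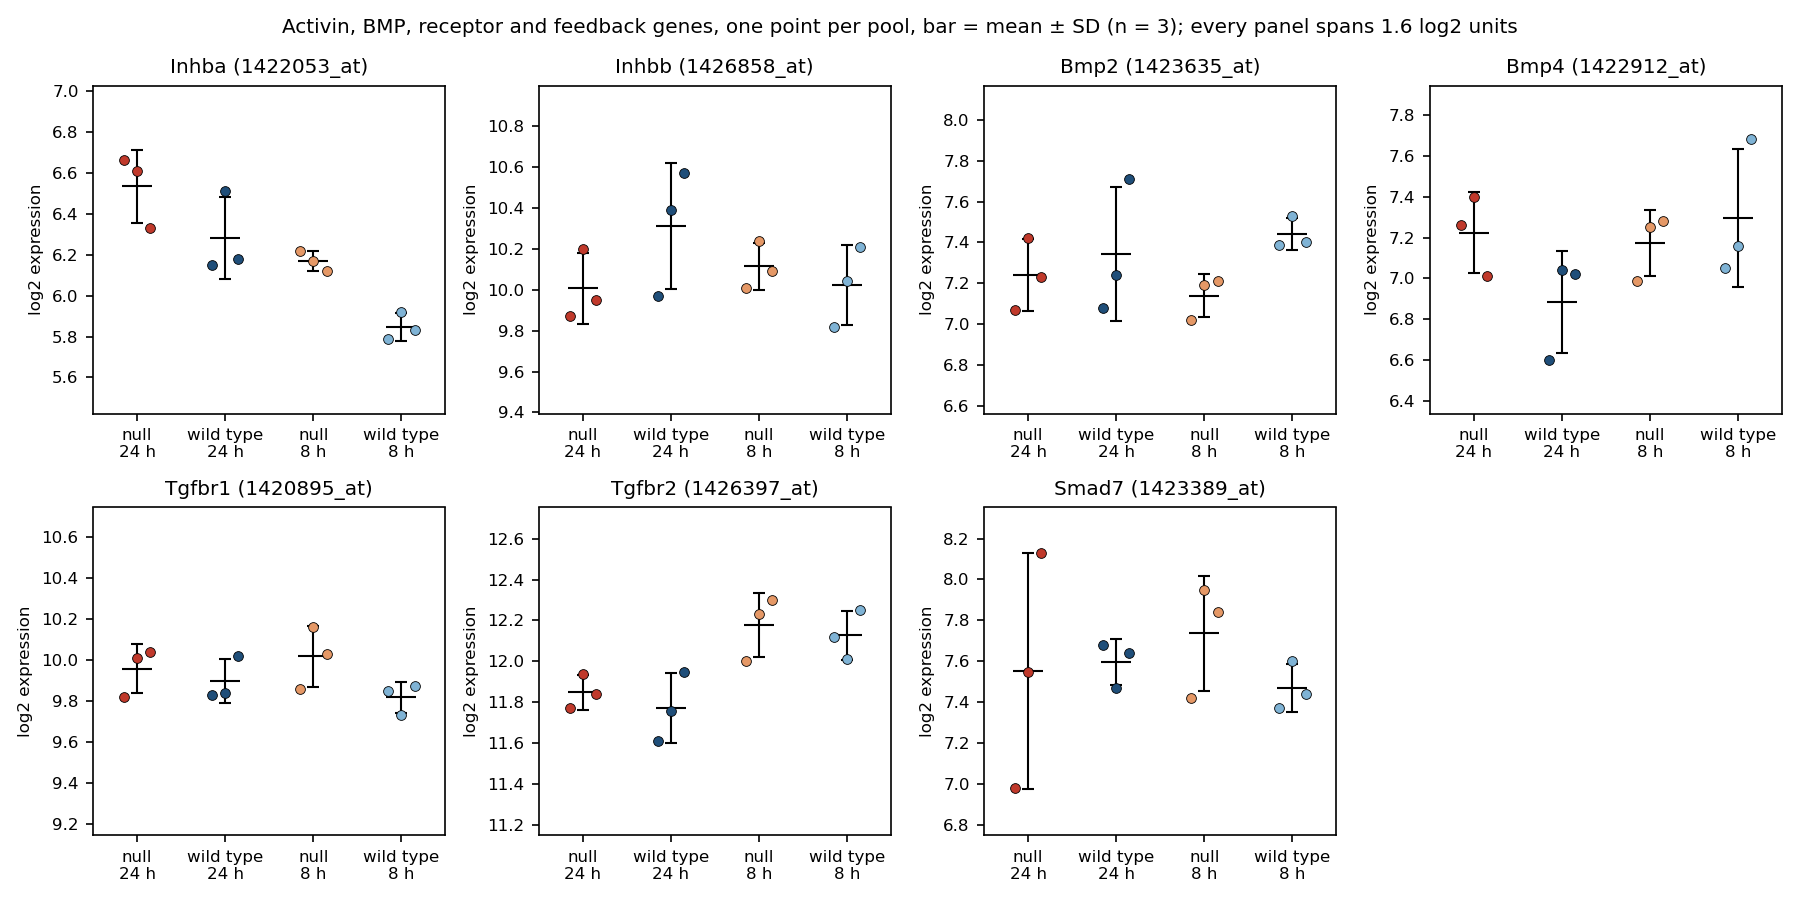
Log2 expression (vertical axis, each panel spanning 1.6 log2 units) of the activin, BMP, receptor and feedback genes in null and wild type glands at 24 h and at 8 h. Points are pools, and bars are the mean ± SD of 3 pools; Tgfbr2 lies between 11.61 and 11.95 in all 24 h pools and between 12 and 12.30 in all 8 h pools, and the null pools of Smad7 at 24 h spread from 6.98 to 8.13.

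Counted over the 14 tested probe sets, the members gave 1 call for genotype at 24 h (Tgfb3, lower in null glands) and 0 for genotype at 8 h by limma, where 6 probe sets of 4 genes did not overlap between the groups. Across all probe sets tested, 1.11% were called for genotype at 24 h (0.873% lower in null glands) and 3.07% at 8 h, and 24.4% did not overlap at 8 h. At 24 h, 3 member probe sets of 2 genes did not overlap between the genotypes, beside 15.3% of all probe sets. At an unadjusted p below 0.05 there were 4 of the 14 member probe sets at 8 h, all of Tgfb2 or Inhba, beside 15.6% of all probe sets tested. At 8 h limma with array weights called 5 member probe sets, of Tgfb2, Inhba and Tgfbr1, beside 16.9% of all. The fit on the 8 h arrays alone called 3, all of Tgfb2, beside 3.37% of all. For time, 4 member probe sets of 2 genes were lower at 24 h in null glands, beside 4.4% of all probe sets called and 3.59% called lower; with the pool number as a block in the null arrays alone, 2 were called, 1 of Tgfb3 and 1 of Tgfb2. In wild type glands, without that block, 2 member probe sets of 1 gene were lower at 24 h, beside 5.22% called and 3.69% called lower. In each genotype 6 member probe sets of 4 genes did not overlap between the times, beside 26% of all probe sets in null glands and 25.9% in wild type glands. The median difference over the 10 genes was -0.04 for genotype at 24 h and -0.02 at 8 h, against -0.01 over all genes tested at each time. For time it was -0.08 in null glands and -0.09 in wild type glands, against -0.02 and -0.01 over all genes. Tgfb2 and Tgfb3 were the members called within a single time or genotype in the fit without a block or weights, and the other 8 genes were not.

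**Figure D3:**
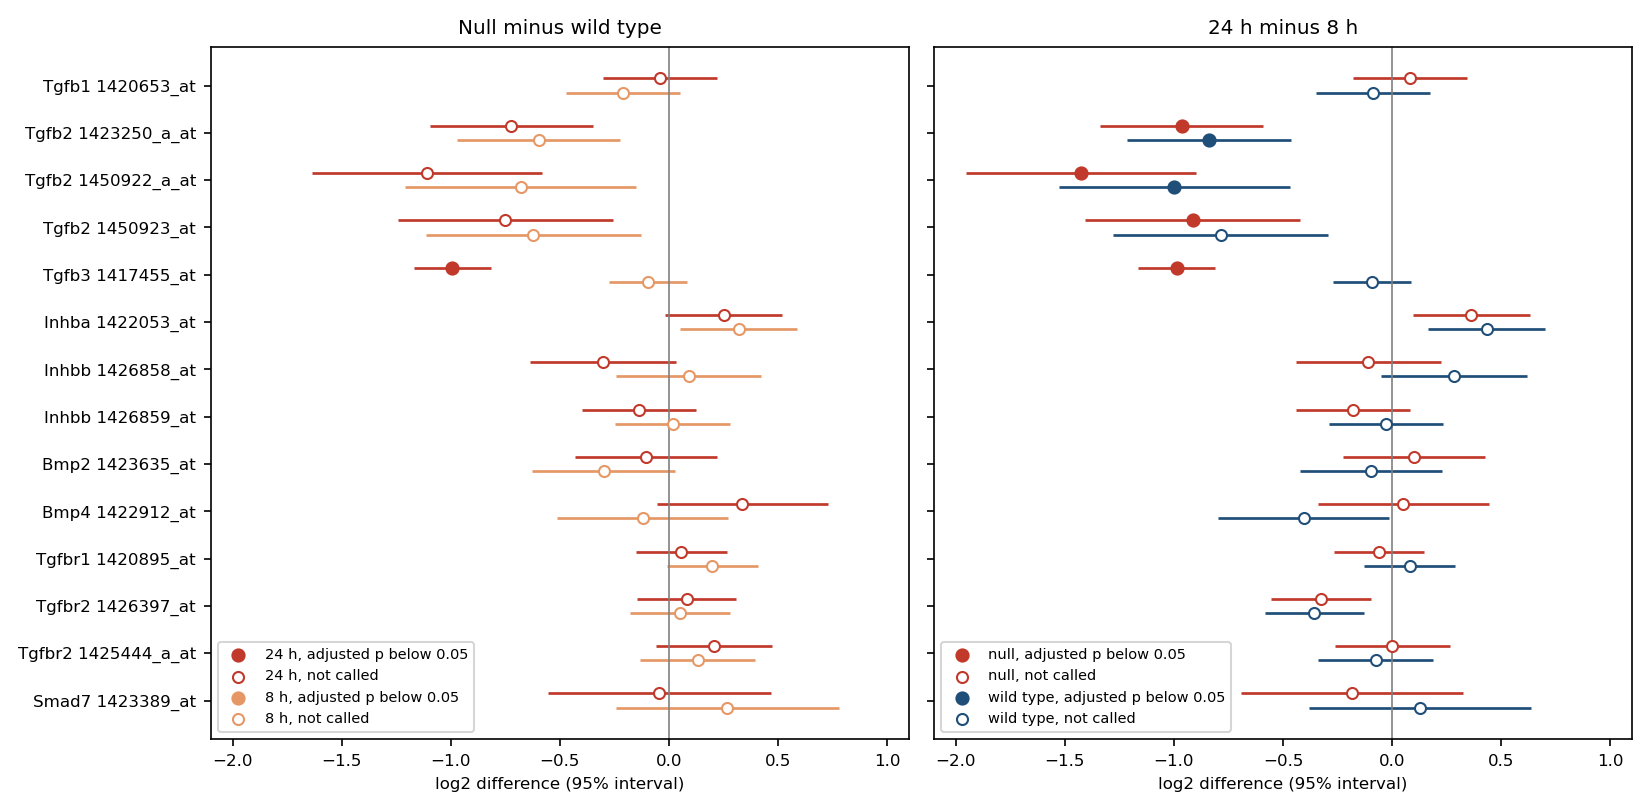
Log2 differences (horizontal axis, with 95% intervals) of the 14 tested member probe sets, for null minus wild type at 24 h and 8 h on the left and for 24 h minus 8 h in null and wild type glands on the right. Filled points passed an adjusted p of 0.05; for genotype this is Tgfb3 at 24 h, at -0.99, and for time it is Tgfb3 in null glands and Tgfb2 in both genotypes, from the fit without a block.

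Markers of mammary epithelium shared with Tgfb3 their lowest values in null glands at 24 h, but differed from it elsewhere, and are given here as measured. The median marker difference was -0.78 for null minus wild type at 24 h, where Tgfb3 gave -0.99. For 24 h minus 8 h in null glands it was -0.66, where Tgfb3 also gave -0.99. For the change between times it was -0.82, where Tgfb3 gave -0.90. Of the 10 markers 0 were called for that change, and 9 had an unadjusted p below 0.05, beside 6.21% of all genes. For null minus wild type at 8 h the median marker difference was 0.35, where Tgfb3 gave -0.09. For 24 h minus 8 h in wild type glands it was 0.31, where Tgfb3 also gave -0.09. The mean of 10 epithelial marker genes, all tested, was 8.66, 8.59 and 8.34 log2 units in null glands at 24 h, against 9.44, 8.91 and 9.53 in wild type glands at 24 h. At 8 h it was 9.26, 9.39 and 8.94 in null glands, against 8.74, 8.73 and 9.31 in wild type glands. At 24 h, 3 of the 10 genes were lower in null glands: Cdh1, the epithelial cadherin (-0.86), Krt7, a luminal keratin (-0.46), and Trp63, a basal transcription factor (-1.41), with adjusted p between 0.0049 and 0.046. Of all genes, 1.3% were called there. At an unadjusted p below 0.05 there were 7 of the 10 markers at 24 h, beside 13.8% of all genes. At 8 h, 2 of the 10 were higher in null glands, the luminal keratins Krt8 (0.80) and Krt18 (0.39), beside 1.42% of all genes called higher. The unadjusted count at 8 h was 4 of 10, beside 16.3% of all genes. For time it was 8 of 10 in null glands, beside 21.2%, and 3 of 10 in wild type glands, beside 22.1%. The part of epithelial content in the Tgfb3 and Tgfb2 values was not tested.

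**Figure D4:**
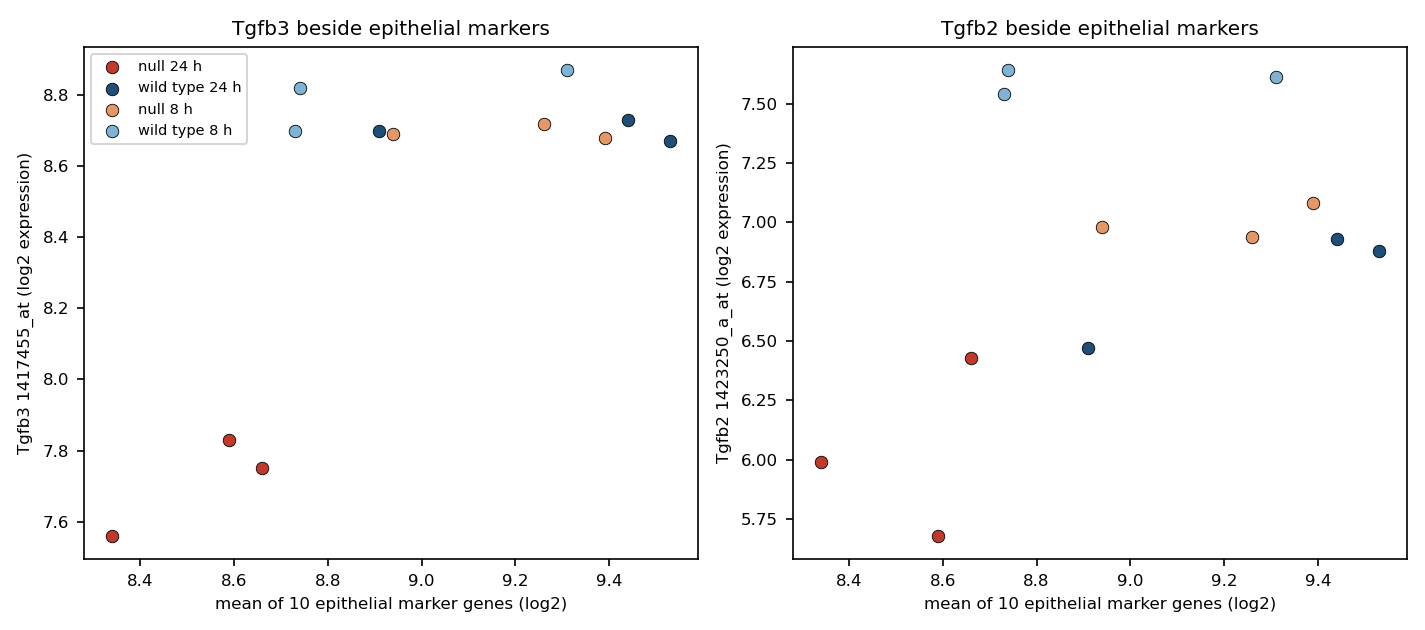
Log2 expression of Tgfb3 (left) and Tgfb2 (right) on the vertical axes against the mean log2 level of 10 epithelial marker genes on the horizontal axes, 1 point per pool, coloured by group. Null pools at 24 h lie at 8.34 to 8.66 on the horizontal axis and at 7.56 to 7.83 for Tgfb3; wild type pools of 24 h lie at 8.91 to 9.53, null pools of 8 h at 8.94 to 9.39 and wild type pools of 8 h at 8.73 to 9.31 on the horizontal axis.

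Marker genes of other cell types are given as measured. The mean of 6 brown adipocyte genes was 10.57 to 11.30 log2 units in null glands at 24 h, against 9.60 to 10.73 in wild type glands, and 10.37 to 11.20 in null glands at 8 h, against 9.21 to 10.01 in wild type glands. Of these genes 2 were higher in null glands at 8 h, Ucp1 and Cidea, both known from brown fat, beside 1.42% of all genes called higher. The mean of 10 skeletal muscle genes was 8.95 to 10.73 in null glands at 24 h, against 9.85 to 12.52 in wild type glands, and 6.79 to 10.57 in null glands at 8 h, against 10.28 to 11.75 in wild type glands. Of the muscle genes 0 of 10 were called by limma for genotype within a time, with 1 at an unadjusted p below 0.05 at 24 h and 3 at 8 h. In the genotype average, 9 of the 10 had an unadjusted p below 0.05, beside 23.4% of all genes, with a median difference of -1.88. None of them was called there, while 4 of the 6 brown adipocyte genes were called higher in null glands, beside 6.76% of all genes called. The mean of 8 stromal genes lay between 11.75 and 12.10 in null glands at 24 h, against 11.87 to 12.15 in wild type glands, and between 11.90 and 12.38 in null glands at 8 h, against 12.13 to 12.50 in wild type glands, and these ranges overlapped. Of 7 endothelial genes, 3 were lower at 24 h in null glands (Pecam1, Kdr and Tie1), beside 4.57% of all genes called. In wild type glands 1 was lower at 24 h, beside 5.28% called. In each genotype 4 of the 7 had an unadjusted p below 0.05, beside 21.2% of all genes in null glands and 22.1% in wild type glands. Tgfb2 and Tgfb3 were called lower at 24 h in null glands, and Tgfb2 in wild type glands too. The part of these cell types in the Tgfb2 and Tgfb3 values was not tested.

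The rest of the pathway was read from 8 lists of further ligands, receptors, SMADs, latency and activation proteins, inhibitors, intracellular regulators and target genes. Of 103 genes listed, 94 were on the array and 74 were tested. In null against wild type glands, 0 of 74 were called by limma at 24 h (13 at an unadjusted p below 0.05, beside 13.8% of all genes), where 1.3% of all genes were called, and 2 were higher at 8 h, which is 2.70% beside 3.01% of all genes called and 1.42% called higher. Of these, Bmp6, a BMP ligand, was 1.58-fold higher in null glands (0.66 log2 units, adjusted p = 0.0228), and Ltbp2, a member of the latent TGF-beta binding protein family found in elastic fibres, was 1.3-fold higher (0.38, adjusted p = 0.0124). For time, 5 of 74 were called in null glands and 5 in wild type glands, 6.76% each, beside 4.57% and 5.28% of all genes. These shares are near the background, so the lists as such were not set apart.

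Among the receptors, Acvr1c, a type I receptor also named ALK7, was 1.59-fold higher at 24 h in null glands (0.67, adjusted p = 0.0391), and Acvr2a, an activin type II receptor, was 1.36-fold higher at 24 h in wild type glands (0.44, adjusted p = 0.0210). Among ligands, Bmp8a was lower at 24 h in null glands (1.89-fold, -0.92, adjusted p = 0.0177) and in wild type glands (2.11-fold, -1.08, adjusted p = 0.0083). Its pools gave 5.77, 5.45 and 5.22 log2 units in null glands at 24 h, against 6.19, 6.31 and 6.69 in null glands at 8 h. In wild type glands Bmp8a gave 5.66, 5.35 and 5.28 at 24 h, against 6.57, 6.33 and 6.64 at 8 h. Every 24 h value lay below the array medians of 5.84 to 5.91, and every 8 h value lay above them. Bmp8a thus entered the test only through its 8 h arrays, and its folds are set against weak 24 h signal. Bmp8a thus shared with Tgfb2 a lower level at 24 h in both genotypes, but its genotype differences were 0.05 at 24 h and -0.12 at 8 h.

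Of the regulators outside the cell, Bmper, a secreted BMP-binding protein, was 2.11-fold higher at 24 h in null glands (1.08, adjusted p = 0.0450), with 8.54, 8.33 and 8.32 log2 units at 24 h, against 6.80, 7.55 and 7.61 at 8 h. Ltbp2 was 1.42-fold higher at 24 h in wild type glands (0.50, adjusted p = 0.0039), and Ltbp3, which holds latent TGF-beta, was 1.23-fold lower at 24 h in null glands (-0.30, adjusted p = 0.0494). Of the regulators inside the cell, Skil (1.36-fold, adjusted p = 0.0418) and Tgif1 (1.51-fold, adjusted p = 0.0368), both repressors of SMAD-driven transcription, were higher at 24 h in wild type glands. In null glands the 24 h minus 8 h values were 0.12 for Skil and -0.19 for Tgif1, and neither gene passed the test of change between genotypes.

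Of 12 tested genes known to respond to TGF-beta or activin, 0 were called by limma for genotype within a time or for time within a genotype. At an unadjusted p below 0.05 there were 4 of them for genotype at 24 h, 1 at 8 h, 3 for time in null glands and 2 for time in wild type glands. Of all genes tested, 13.8%, 16.3%, 21.2% and 22.1% were below that p in these 4 comparisons, in the same order. Of 6 known BMP targets, Id3 was 1.49-fold lower at 24 h in null glands (-0.57, adjusted p = 0.0185), with 10.22, 10.00 and 10.14 log2 units at 24 h, against 10.84, 10.65 and 10.58 at 8 h. In wild type glands the Id3 difference was 0.01. Id3 was the 1 BMP target called for time in null glands, beside 4.57% of all genes called there. At an unadjusted p below 0.05 there were 1 of the 6 for genotype at 24 h and 3 at 8 h. For time there were 2 in null glands and 1 in wild type glands, and the shares of all genes are those given above. Of the 6 other SMADs tested, 0 were called in these comparisons by limma on the probe set with the highest mean, with 2 at an unadjusted p below 0.05 for genotype at 24 h and 1 at 8 h, 0 for time in null glands and 2 in wild type glands. Among further probe sets, 1416081_at of Smad1 was lower at 24 h in null glands (-0.54, adjusted p = 0.0399), and 1426373_at of Ski, a SMAD corepressor, was lower at 24 h in null glands (-0.42, adjusted p = 0.0198) and in wild type glands (-0.41, adjusted p = 0.0189). For Ltbp3, 1418049_at gave a null minus wild type value of 0.30 at 8 h (adjusted p = 0.0478).

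The averages chosen after the data were seen add further pathway genes. For time averaged over genotypes, 18 of 74 were called, 7 higher and 11 lower at 24 h, which is 24.3% beside 16.4% of all genes. The latency and activation list gave 5 of its 9 genes, 1 higher and 4 lower. Over the 74 genes, the called ones ran in both directions. Among the lower ones were the ligand reservoir gene Ltbp1 (-0.40, adjusted p = 0.0337), the proprotein convertase Furin (-0.31, adjusted p = 0.0094), the co-receptor Tgfbr3 (-0.29, adjusted p = 0.0306) and the target genes Cdkn2b (-0.53, adjusted p = 0.0201) and Snai2 (-0.35, adjusted p = 0.0256). Among the higher ones was Smad6, an inhibitory SMAD of the BMP branch (0.48, adjusted p = 0.0225). For genotype averaged over times, 3 of 74 were called, which is 4.05% beside 6.76% of all genes: Smad3, a signal carrier of the TGF-beta branch (-0.26, adjusted p = 0.0201), and Snai2 (-0.34, adjusted p = 0.0456) were lower in null glands, and Bmp6 (0.51, adjusted p = 0.0104) was higher. The other Snai2 probe set tested, 1418673_at, gave -0.15 for this genotype average (adjusted p = 0.51) and -0.43 for the time average (adjusted p = 0.0346). Further tested probe sets of Acvr1c, Acvr2a and Ltbp3 did not pass where the probe set with the highest mean did: for Acvr1c in null glands they gave 0.35 and 0.25, for Acvr2a in wild type glands 0.06, and for Ltbp3 in null glands -0.17, -0.40 and -0.31.

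**Figure D5:**
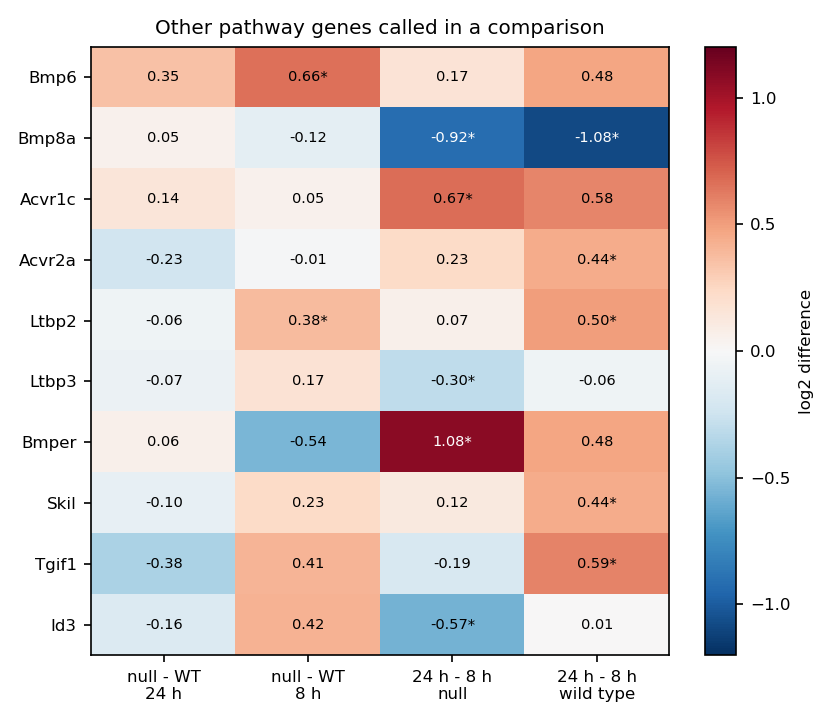
Log2 differences of the 10 further pathway genes called in a comparison, as numbers and colour, for null minus wild type (WT) at 24 h and 8 h and for 24 h minus 8 h in null and wild type glands. A star marks an adjusted p below 0.05; no gene has one for genotype at 24 h, and Bmp8a has one for time in both genotypes, at -0.92 and -1.08.

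The genes whose levels ran closest to the called members were found by Pearson correlation over the 12 arrays among 12004 genes, as a description. For Tgfb3 they were Cep170b (0.96), Casz1, a zinc finger transcription factor (0.95), and Nfix, a nuclear factor I transcription factor (0.95). Cep170b gave 7.91, 7.93 and 7.72 log2 units in null glands at 24 h, against 8.42, 8.46 and 8.54 in wild type glands at 24 h, and had the same low group as Tgfb3. For Tgfb2 they were the long noncoding RNA Norad (0.97), the tRNA methyltransferase subunit Trmt61a (0.97) and the inositol phosphate kinase Ippk (0.97). Ippk gave 6.55, 6.09 and 6.35 in null glands at 24 h, against 6.80, 6.43 and 6.61 in wild type glands at 24 h, and 6.89, 6.77 and 6.89 in null glands at 8 h, against 7.40, 7.24 and 7.22 in wild type glands at 8 h. The 12 points share 4 groups, so these coefficients mostly restate the order of the group means.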

How the data were processed

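Affymetrix arrays of 12 mammary gland RNA pools were analysed from 1 deposited table of 45101 probe sets. The authors deposited log2 values; the labels leave the scale unstated, it was judged here by the span of the values, and folds assume base 2. MAS5 is named, without a role or version, in the submitters' processing notes, and how probes were summarized, background-corrected and normalized is not given in the sources used here. Names of probe sets came from the platform annotation: of 45037 that are not controls, 34945 had 1 symbol, 932 several and 9160 none, and only those with 1 symbol were named. RefSeq GRCm38.p6 gave the promoter windows, for 7 of 10 members.

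Groups came from the labels. A probe set was tested where 3 or more of the 12 arrays had it over that array's median, which kept 23709, or 12004 genes by the probe set with the highest mean. The fit was made with limma 3.58.1 under R 4.3.3 (lmFit, eBayes with a trend), with 4 group means, no replicate block and 8 degrees of freedom left, and with Benjamini-Hochberg adjustment over all probe sets tested; a call is an adjusted p below 0.05. The code was tested on simulated data. The labels call the pools biological replicates, and precision is limited by how many arrays there are. The pool numbers are not said to mark a shared batch. In the data, null arrays sharing a number deviated together between 8 h and 24 h (correlations of 0.26 to 0.52 in all 3 pairs). Wild type arrays sharing a number gave 0.45, -0.01 and 0.02 between the times. Between genotypes the values were 0.06, -0.04 and 0.43 at 24 h and 0.13, -0.03 and -0.02 at 8 h. Arrays with different numbers were not compared in this way, so whether the numbers pair arrays was not settled. The fit without the block remains the one reported, and the value with the block in the null arrays is given where it changes a call.

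Named genes are all members, Pgr, up to 8 called genes per direction and comparison from the fixed pathway lists, and the 3 genes most correlated with each called member. Members and lists were chosen with earlier results of these data known. The averages over times or genotypes and the block in null arrays alone were added after the data were seen. Alternatives changed the filter, a floor, the normalization, the variance prior, array weights, the arrays fitted, the probe sets per gene and the block, and left out each array in turn.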

Additional observations from a re-analysis of the deposited data

Results flagged for a closer look

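The Tgfb3 genotype difference itself differed between the times by the test of that difference: null minus wild type was -0.99 at 24 h and -0.09 at 8 h, a change of -0.90 on the log2 scale (SE 0.11, limma adjusted p = 0.0135). All 3 null pools at 24 h, at 7.56 to 7.83 log2 units, lay below the 3 wild type pools, at 8.67 to 8.73.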

How the results depend on the processing

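Over the 14 tested member probe sets and all comparisons, no called value changed sign under any alternative. Tgfb3 at 24 h and its time difference in null glands were called in each of the 12 fits without 1 array and under every other setting, with adjusted p up to 0.0166.

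Counts of called member probe sets moved as follows. For genotype at 8 h (0), array weights gave 5, only the groups of the comparison gave 3, and leaving out 1 array gave 0 to 1. For genotype at 24 h (1), array weights gave 4, the replicate block gave 3 and leaving out 1 array gave 1 to 4. For the change between times (1), leaving out 1 array gave 0 to 1. For time in null glands (4), only the groups of the comparison, the replicate block in null arrays alone and 1 probe set per gene each gave 2, and leaving out 1 array gave 1 to 4. For time in wild type glands (2), only the groups of the comparison gave 1, the replicate block 5, 1 probe set per gene 1, and leaving out 1 array 0 to 3. For the genotype average (4), 1 probe set per gene gave 2 and leaving out 1 array gave 3 to 5; for the time average (6), leaving out 1 array gave 6. The lower counts with 1 probe set per gene follow from testing 1 Tgfb2 probe set in place of 3; the cause of the other changes was not tested. Over all probe sets, array weights gave 4017 calls for genotype at 8 h (729 without them), 685 for genotype at 24 h (262), 169 for the change between times (34), 5775 for time in null glands (1044), 4540 for the genotype average (1571) and 6524 for the time average (3783). Only the groups of the comparison gave 71, 348 and 500 calls for genotype at 24 h, time in null glands and time in wild type glands (1238). The replicate block gave 482 for genotype at 24 h, 1667 for time in null glands and 2498 for the genotype average, and 566 for time in null arrays alone. The stricter filter gave 21 for the change between times. Leaving out 1 array gave 320 to 889 calls for genotype at 8 h, 126 to 704 at 24 h, 12 to 45 for the change between times, 232 to 1202 for time in null glands and 239 to 1328 in wild type glands. Of the tested Tgfb2 probe sets, 1423250_a_at exceeded the array median on 11 of the 12 arrays, and 1450922_a_at and 1450923_at each did on 8. The part of signal strength in these changes was not tested.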
